A study of Mus musculus with 18 samples.

Results

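PTCP53 304 cells were compared after 144 h (culture day 6) and after 24 h (culture day 1) in vehicle, without any inhibitor. The comparison used 6 of the 18 mouse RNA sequencing libraries of a study on inhibition of the transcription factor OLIG2, with 3 libraries at each time. Of the 55183 genes in the cell table, the 12269 that reached 1 FPKM (fragments per kilobase of gene, scaled to the depth of the library) in at least 3 of the 6 libraries were tested. PTCP53 304 is a single mouse line labelled as Sonic hedgehog (SHH) medulloblastoma, a tumour of the cerebellum, and both groups carry the genotype Ptch1+/-; Trp53-/-. The labels name neither the vehicle nor the medium, and they say nothing of cell density or of medium changes between the times. Nothing in the labels says that the replicates were separate cultures, so a p-value here speaks of the spread among these 6 libraries alone, and that spread may be technical. The other cell libraries came from the same line after 24 h and 144 h with CT-179, the OLIG2 inhibitor, and they enter only where the rise and fall in vehicle is set beside that with the compound. Whole-brain libraries were not used.

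A cell that divides expresses its replication genes from late G1 onward, under E2F transcription factors, and its mitotic genes in G2, under the MuvB complexes with B-MYB and FOXM1. When it leaves the cycle, RB family proteins and the DREAM complex hold both groups low. In the brain, neural progenitors that stop dividing can turn to astrocytes, oligodendrocyte precursors or neurons, and SHH keeps granule neuron precursors of the cerebellum dividing. FGF and other growth factors signal through MAPK, which induces its own inhibitors, among them Sprouty proteins and the phosphatase DUSP6, and the ETV transcription factors.

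Between 24 h and 144 h the replication and mitosis genes fell together, the MAPK feedback genes fell with them, and astrocyte markers rose in the same libraries. At an adjusted p under 0.05 (limma, Benjamini-Hochberg over all genes tested), 5387 genes were higher at 144 h (43.9%) and 5276 lower (43.0%), while 1606 did not pass. With at least a 2-fold change on the log2(FPKM + 1) scale, 1555 genes were higher (12.7%) and 1289 lower (10.5%). On that scale, folds of weakly expressed genes come out too small. The median log2 fold change over all genes tested was 0.01. Without overlap between the 3 libraries of each time, 5476 genes were higher (44.6%) and 5308 lower (43.3%). Since so many genes passed, the counts below are given for changes of at least 2-fold unless stated, to be read against the 12.7% and 10.5% of all genes tested. A gene under 1 FPKM in every library of 1 time entered only through the other time, so the filter fixed its direction. This holds for members of the lists below, and their counts include such genes. FPKM values are shares of a library: a gene that kept its amount per cell can fall in FPKM where others rise.

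**Figure D1:**
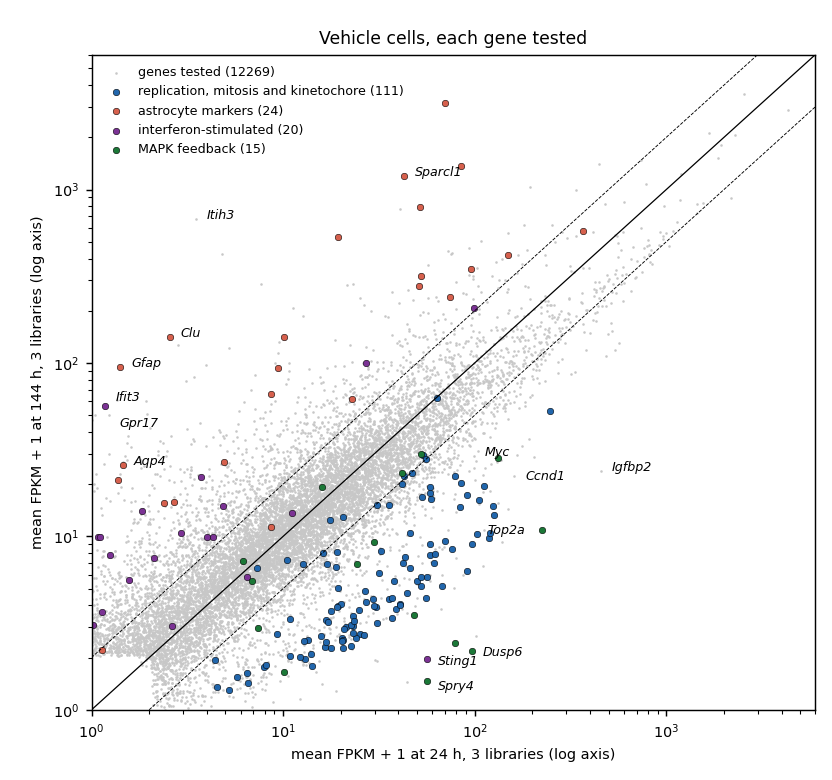
Mean FPKM + 1 of each of the 12269 genes tested at 24 h (horizontal log axis) and at 144 h (vertical log axis), 3 vehicle libraries each, with members of 4 groups coloured, the diagonal solid and 2-fold lines dashed. Nearly all replication, mitosis and kinetochore genes and most MAPK feedback genes lie below the diagonal, and the 24 astrocyte markers above it.

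Depth was judged from the step between low FPKM values, which stood for 3.65e+07 reads at most and 2.22e+07 at least in the 6 libraries, with the lowest in replicate 3 at 24 h. Libraries of 1 time correlated across genes with a Pearson's r of 0.9964 to 0.9977 on the log2(FPKM + 1) scale and libraries of different times with 0.8271 to 0.8346. Markers were read for the label. The hedgehog genes Gli1 and Ptch1 were present (values below), and of the granule lineage markers Zic1, a cerebellar transcription factor, had 16.1 FPKM at both times. Atoh1, which defines granule neuron precursors, had at most 0.0212 FPKM in any library, and Barhl1, Neurod1 and Neurod2 had means under 0.1 at both times, so these defining markers were absent at the RNA level. Olig2 had 382 ± 15.2 FPKM at 24 h (SD, n = 3). Trp53 had 15.4 ± 0.272 FPKM at 24 h and 8.46 ± 0.291 at 144 h. A sum over a gene does not show a deleted part, and both groups carry the same alleles, so the values for Trp53 and Ptch1 check no genotype.

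The promoters of the genes that fell and rose are shown first, since members of the same list moved together. RefSeq windows of 300 bases (250 before and 50 after a start, build GRCm38.p6, the mm10 assembly) matched 9285 of the 12269 genes tested by symbol. Mitotic genes are known for the cell cycle homology region (CHR, searched as TTTGAA or TTCGAA), which lies close to CCAAT boxes bound by NF-Y. Cdc20, the activator of the anaphase-promoting complex (chr4:118437344-118437423, minus strand), Kif11, a spindle motor (chr19:37376302-37376381, plus strand), and Top2a, topoisomerase II (chr11:99024190-99024309, minus strand), are printed 5′ to 3′ up to the last base before the start, with both motifs in capitals on either strand.
Cdc20 promoter: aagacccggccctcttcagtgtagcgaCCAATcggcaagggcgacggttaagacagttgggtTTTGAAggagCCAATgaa
Kif11 promoter: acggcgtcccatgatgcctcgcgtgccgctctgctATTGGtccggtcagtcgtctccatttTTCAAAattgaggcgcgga
Top2a promoter: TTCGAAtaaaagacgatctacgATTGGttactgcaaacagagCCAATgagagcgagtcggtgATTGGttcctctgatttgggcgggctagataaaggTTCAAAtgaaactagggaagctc
Replication genes are known for E2F sites, searched as TTCCCGC or as TTGGCGC or as TTCGCGC. Mcm5 and Mcm6, subunits of the replicative helicase (chr8:75109339-75109488, plus strand, and chr1:128359706-128359825, minus strand), and Orc1, of the origin recognition complex (chr4:108579374-108579453, plus strand), are printed with these letters in capitals, where neighbouring matches can overlap.
Mcm5 promoter: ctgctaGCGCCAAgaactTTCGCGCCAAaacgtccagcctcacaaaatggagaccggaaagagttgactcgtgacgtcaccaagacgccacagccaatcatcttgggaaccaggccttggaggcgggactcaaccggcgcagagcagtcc
Mcm6 promoter: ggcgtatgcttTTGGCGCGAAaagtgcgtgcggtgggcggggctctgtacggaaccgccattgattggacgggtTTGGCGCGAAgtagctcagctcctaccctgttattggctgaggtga
Orc1 promoter: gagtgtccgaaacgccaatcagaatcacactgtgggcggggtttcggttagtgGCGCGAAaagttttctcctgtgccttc

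Lysosome genes are known for the CLEAR element of the TFEB family, searched by its core TCACGTG, which contains the E-box CACGTG. It is in capitals in the windows of Lamp1, a lysosomal membrane protein (chr8:13159081-13159160, plus strand), and Ctsd, the protease cathepsin D (chr7:142387828-142387937, minus strand).
Lamp1 promoter: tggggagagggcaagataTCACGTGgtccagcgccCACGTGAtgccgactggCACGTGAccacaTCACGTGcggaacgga
Ctsd promoter: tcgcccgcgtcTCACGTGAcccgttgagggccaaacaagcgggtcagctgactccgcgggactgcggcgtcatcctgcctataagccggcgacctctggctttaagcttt
Interferon-stimulated genes are known for the interferon-stimulated response element (ISRE), searched as GAAA, any 2 bases and GAAA, after the values had been seen. It is in capitals in the windows of Ifit3, an antiviral RNA-binding protein (chr19:34583359-34583508, plus strand), and Isg15, a ubiquitin-like protein (chr4:156200819-156200918, minus strand).
Ifit3 promoter: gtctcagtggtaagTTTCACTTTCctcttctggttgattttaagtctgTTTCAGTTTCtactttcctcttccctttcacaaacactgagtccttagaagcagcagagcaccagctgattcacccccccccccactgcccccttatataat
Isg15 promoter: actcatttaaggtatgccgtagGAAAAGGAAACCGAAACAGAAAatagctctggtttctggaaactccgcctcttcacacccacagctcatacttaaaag

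Of the 27 mitotic genes with a window, 22 (81.5%) held a CHR, against 13.1% of the windows of genes tested and 19.2% of all 32851 RefSeq windows, and 19 (70.4%) held a CCAAT, against 39.7% and 37.4%. The CCAAT was also found in 27 of 45 replication windows (60%), 10 of 21 lysosome windows (47.6%) and 4 of 16 interferon windows (25%). Of the 45 replication genes with a window, 26 (57.8%) held an E2F match, against 16% and 8.1%. The CHR stood in 9 of these replication genes (20%) and the E2F letters in 4 mitotic genes (14.8%). A CLEAR core was found in 7 of 21 lysosome genes (33.3%), against 6.4% and 3.8%. The ISRE was found in 9 of 16 interferon genes (56.2%), against 2.7% and 3.4%. Among all genes at least 2-fold lower, CHR and E2F matches stood in 23% and 26.8% of 991 windows, and among those at least 2-fold higher in 8.9% and 11.7% of 1171. The CLEAR core stood in 5.9% of the lower and 5.1% of the higher genes, both below the 6.4% of genes tested, and the ISRE in 2.8% and 4.2%. The CCAAT stood in 47.3% and 38.1%. These are matches of letters in a window, not sites of binding.

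**Figure D2:**
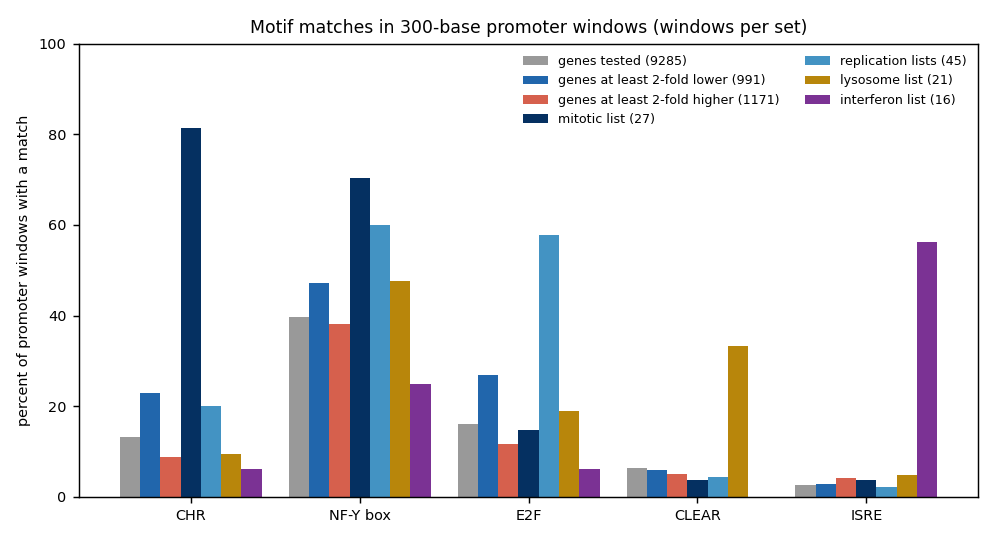
Share of 300-base promoter windows with a motif match on either strand (vertical axis, percent) for 5 motifs (the CCAAT letters as the NF-Y box), in all genes tested, genes at least 2-fold lower or higher and the members of 4 groups of lists, with the number of windows in brackets. CHR matches stand in 81.5% of mitotic windows, E2F matches in 57.8% of replication windows, CLEAR cores in 33.3% of lysosome windows and ISRE matches in 56.2% of interferon windows.

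Genes of the cell cycle fell from their licensing step to cytokinesis. Of 26 origin licensing and helicase genes, 22 fell by at least 2-fold and none rose (median log2 fold change -2.28). Mcm6 was read at 90.1, 89.7 and 91.4 FPKM in the 24 h libraries and at 16.1, 16 and 16.5 in the 144 h libraries. The times did not overlap, and the log2 fold change was -2.41 (SE 0.0258, adjusted p = 4.16e-11, limma). Mcm5 fell from 118 ± 2.63 to 8.79 ± 0.515 FPKM (SD, n = 3). Of 29 replication fork genes 27 fell by at least 2-fold (median -2.43), and of 21 nucleotide synthesis genes 18 (median -1.52). The thymidine kinase Tk1, which salvages thymidine for DNA synthesis, stood at 102, 100.2 and 99.1 FPKM at 24 h and at 1.98, 1.33 and 1.72 at 144 h (log2 fold change -5.25). It was the third largest fall among the named genes of at least 10 FPKM. Genes outside the cycle among the 12 largest falls included Papln, a matrix protein (65.4 ± 2.03 to 2.81 ± 0.0943 FPKM), Sostdc1, a secreted BMP and Wnt antagonist (29.9 ± 0.948 to 0.901 ± 0.0760), and Adam12, a metalloproteinase (29.3 ± 0.714 to 0.945 ± 0.0865).

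All 31 mitotic kinase, spindle and cytokinesis genes fell by at least 2-fold, with a median of -3.06. Mki67, the proliferation antigen, had 63.4, 67.2 and 68.2 FPKM at 24 h and 3.99, 3.99 and 4.59 at 144 h, with no overlap (log2 fold change -3.70, SE 0.0520, adjusted p = 1.34e-10, limma). Top2a, which untangles chromosomes, had 96.3, 99.5 and 108 FPKM against 9.07, 9.06 and 9.74. Summed over the list, the 3 libraries at 24 h held 1448 to 1501 FPKM and those at 144 h 150.2 to 159. Of 25 kinetochore and centromere genes 22 fell by at least 2-fold. Zwint, a kinetochore protein, had 62.8 ± 2.56 and 61.7 ± 0.589 FPKM and did not pass (adjusted p = 0.498, limma). All 22 homologous recombination and Fanconi genes fell by at least 2-fold (median -2.08). Among the condensin and cohesin genes 11 of 21 fell so far, and Pttg1, the separase inhibitor securin, was higher, at 9.89, 10.7 and 8.36 FPKM against 12.3, 11.4 and 12.1.

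Cyclins did not move alike. Ccna2, Ccnb1 and Ccnb2, the S-phase and mitotic cyclins, fell by 4.04, 3.87 and 3.62 on the log2 scale. Ccnd1, a D-type cyclin that links growth signals to RB, was at 159, 161 and 159 FPKM and then at 21.9, 20.8 and 20.9. Its relative Ccnd2 was at 146, 146 and 153 FPKM and then at 13.7, 13.5 and 13.1. Both fell without overlap (log2 fold changes -2.86 and -3.37), whereas the values of Ccnd3 overlapped, at 35.3 ± 0.724 and 34.1 ± 1.64 FPKM (adjusted p = 0.234, limma). The kinase Cdk6 rose from 0.730 ± 0.0770 to 3.14 ± 0.0785 FPKM, and Cdk4 fell from 242 to 149.8 FPKM in the mean. Within the E2F and RB group, E2f1, E2f2, E2f7, E2f8, Mybl2 and Foxm1 fell by 2.19 to 2.82 on the log2 scale, while the pocket protein genes Rb1 and Rbl2 both rose by 0.88 and their relative Rbl1 fell by 1.90.

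Of 23 cell cycle inhibitor and quiescence genes, 10 rose by at least 2-fold and none fell so far (median 0.92). Cdkn2b, which encodes the CDK4/6 inhibitor p15, was at 3.18, 3.09 and 2.97 FPKM at 24 h and at 23.9, 23.3 and 22.8 at 144 h (log2 fold change 2.58, adjusted p = 1.35e-10, limma). Cdkn1a, for p21, rose from 1.05 ± 0.0963 to 4.93 ± 0.159 FPKM, in a line with no working Trp53 by its label. Cdkn1c, for p57, rose from 4.39 ± 0.533 to 12.9 ± 1.09 FPKM, and Cdkn1b, for p27, from 24.0 ± 0.966 to 45.2 ± 0.267. The growth arrest genes Gadd45g and Btg2 rose by 2.30 and 1.78. The INK4 relatives Cdkn2c and Cdkn2d fell (-0.89 and -0.74), and Cdkn2a, for p16 and p19ARF, overlapped between the times at 82.1 ± 5.59 and 77.8 ± 1.18 FPKM.

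**Figure D3:**
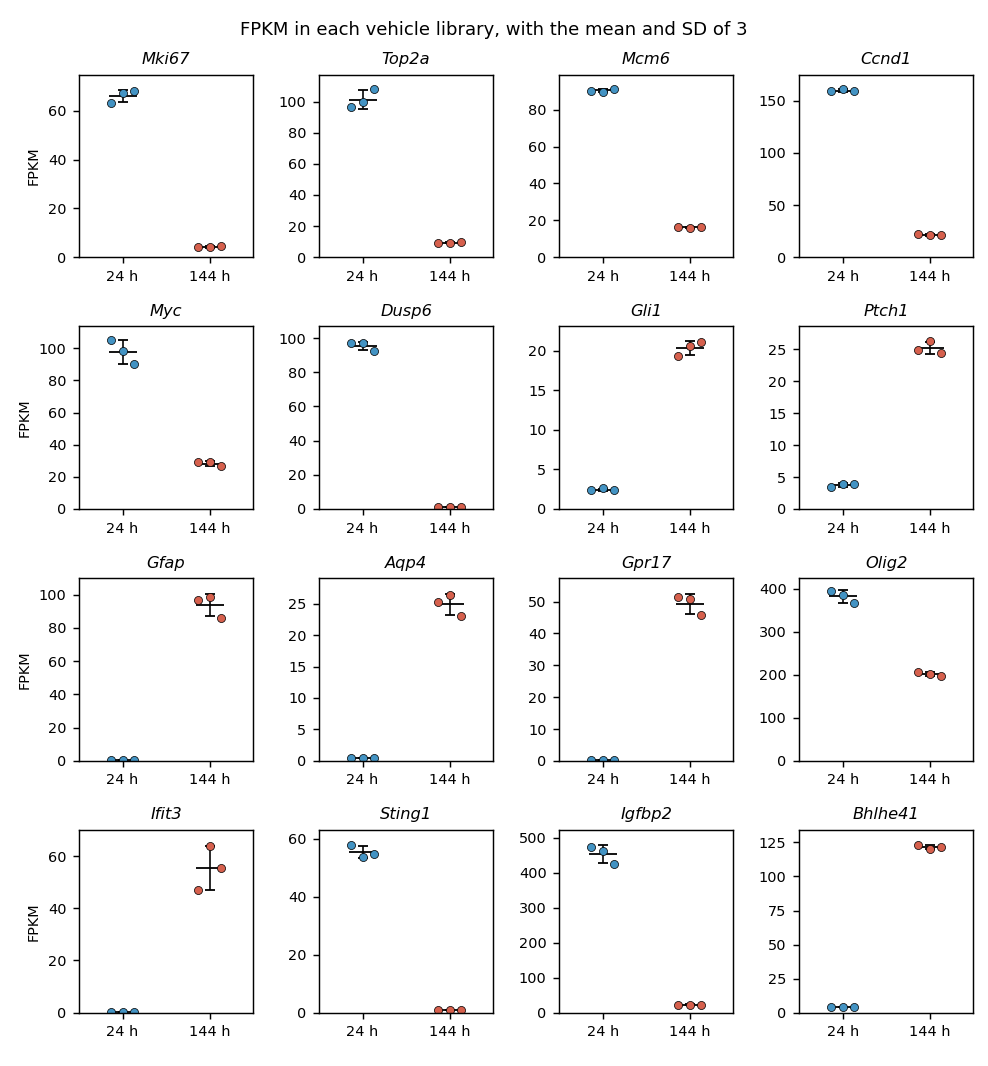
FPKM (vertical axes, each from 0) of 16 genes in each vehicle library at 24 h (blue) and 144 h (red), with the mean (black line) and SD of 3. The times overlap in none of the 16 panels, Mki67 standing at 63.4 to 68.2 and 3.99 to 4.59 FPKM and Gfap at 0.357 to 0.448 and 85.9 to 98.4.

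Signalling genes parted between pathways. The hedgehog targets Gli1, Ptch1 and Hhip rose. Gli1, a transcription factor that is both effector and target, had 2.34, 2.6 and 2.40 FPKM at 24 h and 19.4, 20.6 and 21.1 at 144 h (log2 fold change 2.63, SE 0.0464, adjusted p = 3.98e-10, limma). The receptor Ptch1 had 3.45, 3.98 and 3.84 FPKM and then 24.9, 26.3 and 24.5. Hhip, a ligand-binding inhibitor and target, rose from 0.325 ± 0.0388 to 2.32 ± 0.0812. These targets therefore stood higher in the libraries in which Mki67 stood lower. The co-receptors Cdon and Gas1 fell, from 9.72 ± 0.238 to 1.34 ± 0.0223 and from 54.3 ± 2.37 to 12.3 ± 0.302 FPKM, and the repressor Gli3 from 10.4 to 4 FPKM in the mean. The transducers Smo and Sufu had log2 fold changes of -0.16 and -0.19, both past the threshold. Over the 17 hedgehog pathway genes tested, 3 rose and 3 fell by at least 2-fold.

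Of 15 MAPK feedback genes 10 fell by at least 2-fold and none rose so far (median -1.81). Dusp6, the ERK phosphatase, was at 96.8, 96.8 and 92.7 FPKM at 24 h and at 1.26, 1.15 and 1.16 at 144 h (log2 fold change -5.46, SE 0.0351, adjusted p = 1.29e-11, limma), the largest fall among named genes of at least 10 FPKM. The Sprouty gene Spry4 went from 55.7 ± 1.52 to 0.468 ± 0.0906 FPKM, Spry1 from 47.2 to 2.51 and Spry2 from 132 to 27.3. The ETS factor Etv4 was at 81.7, 78.1 and 75.1 FPKM and then at 1.47, 1.26 and 1.55. Etv5 fell from 223 ± 3.09 to 9.83 ± 0.327 FPKM, whereas their relative Etv1 was 0.26 higher on the log2 scale. The immediate early genes, which ERK also induces, did not follow: Fos rose from 1.90 ± 0.152 to 23.5 ± 2.05 FPKM and Egr1 from 2.96 ± 0.221 to 7.70 ± 0.213, while Maff fell by 1.30 and 3 of 12 rose by at least 2-fold.

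Receptor genes rose more often than they fell, 11 of 18 receptor tyrosine kinases by at least 2-fold (median 1.44). Ntrk2, the BDNF receptor, was at 0.937, 0.939 and 0.872 FPKM at 24 h and at 59.4, 60.1 and 58.3 at 144 h (log2 fold change 4.97). Fgfr3 rose from 0.377 ± 0.0446 to 20.2 ± 1.22 FPKM and Erbb4 from 1.42 ± 0.0656 to 13.9 ± 0.594. Egfr was slightly lower, at 30.2 ± 0.295 and 23.4 ± 0.781 FPKM, as were Fgfr1 (-0.53) and Insr (-0.73). Of 11 insulin-like growth factor genes tested 4 rose and 3 fell by at least 2-fold (median -0.25), and their binding proteins moved in both directions. Igfbp2 had 474, 462 and 426 FPKM at 24 h and 23.4, 21.2 and 23.4 at 144 h, and Igfbp5 had 70.8, 82.0 and 70.2 and then 426, 422 and 423. Neither pair of groups overlapped (log2 fold changes -4.26 and 2.50). Igfbp3 and Igfbp4 also fell, from 99.9 to 20.2 and from 100.3 to 26.3 FPKM in the mean, and Igfbp6 rose from 0.168 to 2.08.

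Myc, the growth-promoting transcription factor, was at 105, 98.3 and 90.1 FPKM and then at 29.1, 29.0 and 26.6 (log2 fold change -1.76, adjusted p = 1.32e-08, limma). Its relatives Mycl and Mycn rose, from 3.64 ± 0.175 to 18.5 ± 0.544 and from 0.275 ± 0.0344 to 2.76 ± 0.150 FPKM, and so did the antagonists Mxd1, Mxi1 and Mxd4. Mxd3, the family member known to be expressed in S phase, fell by 2.83. Genes for making ribosomes fell with Myc. Of 25 ribosome biogenesis genes 19 fell by at least 2-fold (median -1.37), and all 28 cytosolic ribosomal protein genes passed the test as lower (median -0.84), 7 of them by at least 2-fold. Of 23 nuclear import and mRNA processing genes 19 fell by at least 2-fold, and the splicing kinase genes Clk1 and Clk4 were among 4 that passed as higher.

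The Notch genes include ligands, receptors and the HES and HEY repressors they induce. Of 18 tested, 9 rose by at least 2-fold and 1 fell. The ligand Dll3 rose from 9.79 ± 0.834 to 99.2 ± 3.18 FPKM, the receptor Notch3 from 6.56 to 47, and the target Hes5 from 27.8 ± 2.07 to 199 ± 4.63, while the target Hes1 fell from 26.7 ± 0.826 to 11.4 ± 0.0538. Of 15 BMP and ID genes tested 4 rose and 2 fell by at least 2-fold (median 0.45). The ID genes, targets of BMP that block neurogenic factors, were higher: Id4 rose from 0.152 ± 0.0407 to 7.24 ± 0.419 FPKM, Id1 by 2.29, Id3 by 0.94 and Id2 by 0.50. The decoy receptor Bambi and the ligand Bmp7 had log2 fold changes of -1.32 and -1.30. Of 17 Wnt genes 4 rose by at least 2-fold, led by the ligand Wnt7b (2.90), and 2 fell, the secreted inhibitor Wif1 (-2.39) and the target factor Tcf7 (-2.15).

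**Figure D4:**
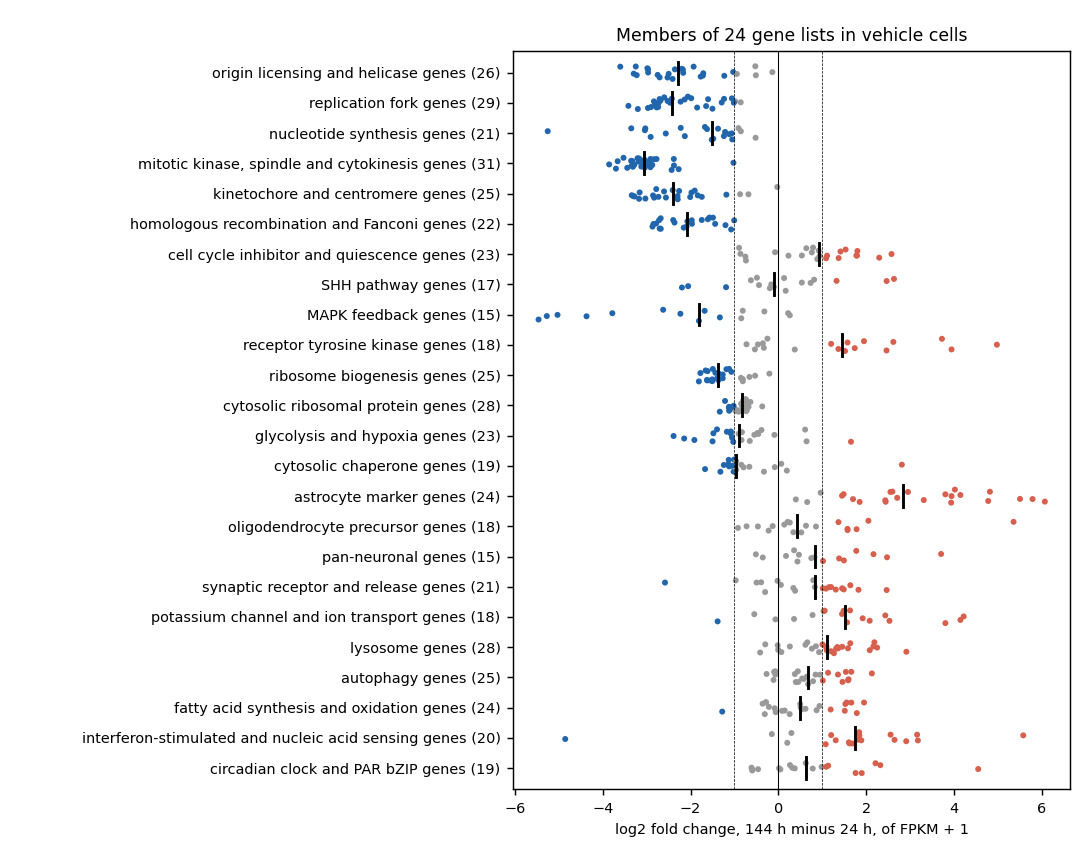
Log2 fold change (144 h minus 24 h, FPKM + 1) of every tested member of 24 gene lists, with the number tested in brackets, members at least 2-fold higher in red and lower in blue, and black bars for the medians. Medians run from -3.06 for the mitotic list to 2.83 for the astrocyte markers, with the hedgehog genes spread on both sides of 0.

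Astrocyte markers rose as a group. All 24 tested were higher, 21 of them by at least 2-fold (median 2.83), and their sum went from 1089 to 1126 FPKM over the 24 h libraries to 9694 to 10060 over the 144 h libraries. Gfap, the astrocyte intermediate filament, had 0.357, 0.427 and 0.448 FPKM at 24 h and 97.0, 98.4 and 85.9 at 144 h (log2 fold change 6.07, SE 0.0562, adjusted p = 2.77e-11, limma). The water channel Aqp4 had 0.526, 0.402 and 0.457 FPKM and then 25.3, 26.4 and 23. Clu, the secreted chaperone clusterin, had 1.46 to 1.63 FPKM and then 134 to 148. Cst3, the protease inhibitor cystatin C, rose from 68.7 ± 4.74 to 3153 ± 87.5, and Apoe, the lipid carrier, from 83.7 ± 2.42 to 1372 ± 36.7. The glutamate transporters Slc1a3 and Slc1a2 rose from 95.1 ± 1.62 to 346 ± 5.17 and from 1.40 ± 0.0650 to 14.6 ± 0.341 FPKM. The smallest rise was that of the gap junction gene Gja1 (0.40), and Gjb6 reached a mean of only 0.308 FPKM and was not tested. In bulk RNA, more cells of a type and more RNA per cell cannot be told apart.

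The largest rise among named genes of at least 10 FPKM was that of Itih3, a hyaluronan-binding inhibitor subunit expressed in astrocytes, from 2.34, 2.93 and 2.25 FPKM to 679, 663 and 694 (log2 fold change 7.6). It was followed by Agt, angiotensinogen, also made by astrocytes, from 3.78 ± 0.464 to 423 ± 11.8 FPKM. Entpd2, an enzyme that splits extracellular ATP, was listed at 0, 0.0282 and 0 FPKM at 24 h and at 46.0, 45.8 and 45.0 at 144 h. The GABA-B receptor subunit Gabbr2 went from 0.0433 ± 0.00637 to 49.1 ± 1.6 FPKM and the endothelin receptor Ednrb from 1.83 ± 0.185 to 126 ± 7.24. Of 18 potassium channel and ion transport genes 13 rose by at least 2-fold (median 1.52), while 2 passed as lower, Kcnd3 and Slc12a2. Some genes of this list, among them Aqp4, Atp1b2 and Kcnj10, are astrocyte markers already counted above. The inward rectifier Kcnj10 rose from 9.05 ± 0.215 to 139 ± 2.07 FPKM, and the GABA transporter Slc6a11 from 10.2 ± 0.371 to 208 ± 5.47. Of 14 reactive glia and acute-phase genes, which also include Gfap, 8 rose by at least 2-fold, Serpina3n by 4.15 and C4b by 3.29. Cd44 and the chemokine Ccl2 fell (-1.13 and -2.19).

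Transcription factors of glia moved in both directions. Olig2, the target of the compound tested elsewhere in the study, was at 395, 386 and 366 FPKM at 24 h and at 206, 201 and 197 at 144 h, with no overlap (log2 fold change -0.92, SE 0.0372, adjusted p = 4.22e-08, limma). Olig1 was at 698, 659 and 613 and then at 403, 396 and 391 FPKM. Sox9, a gliogenic factor, rose from 43.4 ± 0.992 to 129 ± 0.393 FPKM, Hopx from 0.818 to 23.8 and Sox6 from 2.25 to 21.8. Sox10, of the oligodendrocyte lineage, had a mean of 0.213 FPKM at 144 h and was not tested. Of the stem cell genes, Sox2 rose from 107 ± 3.14 to 257 ± 3.43 FPKM, whereas Nes, the progenitor filament nestin, fell from 164 ± 6.56 to 28.3 ± 0.840 and Hmga2 from 7.06 ± 0.363 to 0.298 ± 0.0604. Over 19 stem cell and radial glia genes tested, 4 rose and 4 fell by at least 2-fold.

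Of 18 oligodendrocyte precursor genes 13 passed as higher, 6 of them by at least 2-fold, and 4 as lower, Olig1, Olig2, Cspg4 and Cspg5 (median 0.43). Their sum was 1650 to 1798 FPKM at 24 h and 1666 to 1684 at 144 h, so the ranges overlapped. Olig1 and Olig2, which both fell, made up much of that sum, so it does not describe the other members. Gpr17, a receptor of committed precursors, was at 0.217, 0.226 and 0.242 FPKM and then at 51.5, 50.8 and 45.7 (log2 fold change 5.35). Pdgfra, the growth factor receptor of precursors, rose from 6.54 ± 0.398 to 21.4 ± 0.294 FPKM and the proteoglycan Vcan from 8.30 ± 0.331 to 37.5 ± 0.763, and Cspg4, for NG2, was lower at 30.4 ± 1.44 and 21.7 ± 0.917. Of 20 myelin genes only 8 were tested. Cnp, an enzyme of myelinating cells, rose from 6.11 ± 0.237 to 53.1 ± 1.40 FPKM, while the myelin genes Mbp, Mag and Mobp had means under 1 FPKM at both times and Mog was listed at 0 in every library.

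Neuronal genes rose in part. Of 15 pan-neuronal genes tested 7 rose by at least 2-fold (median 0.82), and 6 others of the list did not reach the filter. Tubb3, the neuronal tubulin, had 0.285, 0.418 and 0.409 FPKM at 24 h and 17.3, 16.9 and 16.4 at 144 h, and Dcx, a microtubule protein of young neurons, had 0.241, 0.299 and 0.287 and then 4.55, 4.83 and 4.80. Neither overlapped (log2 fold changes 3.70 and 2.17). Both genes were under 1 FPKM in every 24 h library. They therefore entered the test only through 144 h and could count only as higher. The neuronal genes Rbfox3, Snap25, Stmn2 and Nefl had means under 0.5 FPKM at both times. Of 21 synaptic genes tested, 10 rose by at least 2-fold, the GABA-B receptor gene Gabbr1 by 2.47, and 1 fell, the glutamate receptor Grm5 (-2.58).

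Markers of other cells were read for their presence. Of 16 microglia and macrophage genes 2 were tested. The lysosomal glycoprotein gene Cd68 had 1.23 ± 0.0471 and 1.80 ± 0.111 FPKM, while C1qa, C1qb, C1qc, Tyrobp, Trem2 and Ctss were listed at 0 in all 6 libraries. Endothelial genes summed to at most 2.593 FPKM in any library. Of 14 fibroblast and pericyte genes 8 were tested, with 2 higher and 3 lower by at least 2-fold, and their sum was 48.59 to 50.46 FPKM at 24 h and 30.68 to 30.82 at 144 h. Of 14 ependymal genes 1 was tested, Foxj1, the factor for motile cilia, which rose (1.85), and the list summed to at most 8.708 FPKM.

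Lysosome and autophagy genes rose. Of 28 lysosome genes 17 rose by at least 2-fold and none fell so far (median 1.10). Ctsl, the protease cathepsin L, was at 10.1, 9.27 and 9.67 FPKM and then at 78.2, 79.3 and 80.7 (log2 fold change 2.91). Ctsd and Lamp1, whose promoters are printed above, rose from 122 ± 4.67 to 314 ± 3.21 and from 168 ± 8.72 to 419 ± 1.32 FPKM. Gla and Glb1, 2 glycosidases whose windows also hold a CLEAR core, were lower (-0.42 and -0.30). Of 25 autophagy genes 9 rose by at least 2-fold, among them Wipi1 (2.13) and the LC3 genes Map1lc3a and Map1lc3b (1.66 and 1.59).

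Metabolic genes moved apart. Of 23 glycolysis and hypoxia genes 11 fell by at least 2-fold and 1 rose (median -0.91). Hexokinase Hk2 was at 15.7, 17.6 and 17.2 FPKM and then at 2.36, 2.55 and 2.31, and enolase Eno1 at 467, 501 and 483 and then at 110.2, 109 and 107, neither overlapping. Ddit4, an mTOR inhibitor, was the gene that rose (1.65). For fatty acids 7 of 24 genes rose by at least 2-fold, the desaturases Fads2, Scd1, Scd2 and Fads1 by 1.79, 1.66, 1.55 and 1.51, while the elongase Elovl6 fell (-1.28). Of 27 sterol genes 4 rose and 3 fell by at least 2-fold, and the synthase Hmgcs1 and the cholesterol exporter Abca1 rose by 2.30 and 2.76. Of 20 serine, one-carbon and amino acid supply genes 10 fell by at least 2-fold, led by the mitochondrial folate enzyme Mthfd2 (-2.66), and 4 rose, glutamine synthetase Glul and the transporter genes Slc7a5, Slc3a2 and Slc1a4.

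Protein folding genes fell. Of 19 cytosolic chaperone genes 9 fell by at least 2-fold (median -0.96), with the mitochondrial chaperonin Hspd1 at -1.67, and the small heat shock protein Cryab rose from 1.00 ± 0.257 to 13 ± 0.949 FPKM. Of 25 unfolded protein and stress response genes 4 fell and 2 rose by at least 2-fold, and 17 passed as lower. Of 26 nuclear-encoded respiratory chain genes 23 passed as lower but 2 by at least 2-fold (median -0.46). Of 29 chromatin regulators 13 fell by at least 2-fold, including Hells, Dnmt1 and Ezh2 (-3, -2.06 and -1.63), and 2 rose, Hdac11 and Hdac5.

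Interferon-stimulated genes rose, 16 of 20 by at least 2-fold (median 1.75). Ifit3 had 0.198, 0.120 and 0.206 FPKM at 24 h and 46.9, 64.0 and 55.3 at 144 h (log2 fold change 5.58, SE 0.0986, adjusted p = 4.05e-10, limma), with an SD of 8.54 around a mean of 55.4 FPKM at 144 h. Isg15 had 0.312, 0.385 and 0.0639 and then 5.81, 6.96 and 7.73, with no overlap. Ifit3 and Isg15 were under 1 FPKM in every 24 h library, so the filter admitted them only through 144 h. Replicate 1 was the lowest at 144 h for Ifit3 and Isg15 and replicate 3 for Ifit1, another antiviral protein of the family (7.77 FPKM). The cytosolic DNA sensor relay Sting1 went the other way, from 57.7, 53.7 and 54.8 FPKM to 0.990, 0.969 and 0.895 (log2 fold change -4.85). Of 11 MHC class I genes tested 3 rose by at least 2-fold, Tapbp (2.15), H2-T23 (1.46) and B2m (1.24).

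The same passage of time was also read with CT-179 in the other cell libraries. Of the 1555 genes at least 2-fold higher in vehicle 1260 (81%) met the same 2-fold rule with CT-179, and of the 1289 lower genes 1067 (82.8%) did. The vehicle calls came from the fit of the 6 vehicle libraries, and the CT-179 calls from a fit of all 12 cell libraries. By the adjusted threshold alone, 4149 of the 12510 genes in that fit were higher at 144 h with CT-179 and 4020 lower. The share of all genes that met the 2-fold rule with CT-179 was not counted. A direct test of the difference between the time effects (an interaction in 1 limma fit of 12 libraries and 12510 genes) passed no gene (0.00%, 0 calls), and before adjustment 574 genes had a p under 0.05. At the adjusted threshold the number of genes called was 331 without replicate 2 at 144 h with CT-179, 3 without replicate 1 of that group, 28 without the filter on low values and 1 with a filter of 5 FPKM. For Gfap the log2 fold change was 6.07 in vehicle and 6.14 with CT-179, for Mki67 -3.70 and -3.87, for Gli1 2.63 and 2.05, and for Olig2 -0.92 and -0.98. Some other named genes lay further apart, among them Gpr17 (5.35 and 4.35), Igfbp2 (-4.26 and -3.30) and Dcx (2.17 and 1.27). Their differences did not pass either (adjusted p = 0.0936, 0.634 and 0.411, limma interaction).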

How the data were processed

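RNA was sequenced from PTCP53 304 cells in vehicle (3 libraries at 24 h, 3 at 144 h), per the labels' protocols after RNeasy extraction and a SMARTer mRNA library kit. FPKM values per gene were computed and deposited by the authors. The submitters' processing notes name, with no role, the build mm10, edgeR 3.28.1 with R 3.6, HTSeq 0.6.1p2, STAR 2.6.0c and Trim Galore 0.5.0. The settings, the annotation and the use of strand are not given in the sources used here, so reads of overlapping, antisense or near-identical genes may be shared.

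Values were not treated as counts. A gene entered where 3 or more of the 6 libraries reached 1 FPKM. After adding a pseudocount of 1 and taking log2, the times were compared in limma 3.58.1 (R 4.3.3), with Benjamini-Hochberg adjustment over all genes tested and a threshold of 0.05. A 2-fold change is a log2 fold change of at least 1 that passed. The script was tested on simulated data. Replicate numbers did not pair the libraries: deviations of same-numbered libraries from their group means correlated at 0.039, -0.006 and 0.006.

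Named genes were a fixed set of regulators and markers, the 12 largest rises and 12 largest falls with a mean of at least 10 FPKM, up to 5 leading members of each list at 3 FPKM or more, up to 3 members that moved against their list, and members named for a role. The comparison, its members and the lists were chosen with earlier results of these data known. Low FPKM values were whole multiples of 1 read in 90.1% to 91.9% of cases (within 0.1 of a read, up to 20 reads), and reads summed from these steps exceeded the depth they imply by 1.25 to 1.28 times, so that depth is approximate. Promoter letters were searched on both strands. Alternatives changed the pseudocount, the filter, the scaling, the block and the libraries in the fit.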

Additional observations from a re-analysis of the deposited data

How the results depend on the processing

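Over the alternatives that keep all 6 vehicle libraries, 3808 to 7318 genes were higher and 4054 to 6076 lower. TPM scaling, in which each library sums to the same total, shifted the median log2 fold change of all genes to 0.13 and raised the count at least 2-fold higher from 1555 to 2569. It took Atg3, an autophagy enzyme, from lower to a change of 0 (adjusted p = 0.97, limma). No list median changed sign under TPM or median-of-ratios scaling. The list counts at least 2-fold higher or lower depended more on the processing. Among 118 such counts, 13 moved by more than a set ratio, or to or from none, under TPM scaling. The number was also 13 with a filter of 5 FPKM, 8 with a pseudocount of 0.1 and 3 under median-of-ratios scaling. Leaving out 1 vehicle library at a time moved 6 to 11 of the 118 counts. With a pseudocount of 0.1 the counts at least 2-fold higher and lower were 2055 and 1590. With the replicate block they were 1555 and 1289, and 5382 genes were higher and 5267 lower. Leaving out 1 library at a time gave 4498 to 5358 higher and 4796 to 5141 lower genes, 1118 to 1578 of them higher and 1090 to 1298 lower by at least 2-fold. This filter keeps its minimum of 3 libraries, so fewer genes enter. The test of CT-179 against vehicle over time called 28 genes without the filter and 1 with a filter of 5 FPKM, against 0, and 0 to 331 when 1 library was left out, with 3 without replicate 1 and 331 without replicate 2 at 144 h with CT-179. The cause was not tested. Of 361 named genes, 17 no longer passed in the fit of 12 libraries and 4 no longer passed under TPM scaling, beside Atg3. The 3 libraries at each time limit the precision, and FPKM shows shares of RNA, not amounts per cell.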

Other observations

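Genes of the circadian clock and the PAR bZIP factors it drives were mostly higher at 144 h: 7 of 19 tested rose by at least 2-fold and none fell so far (median log2 fold change 0.62). Beside Bhlhe41, a repressor, which rose by 4.55 on the log2 scale, the output factor Dbp rose by 2.32, and Cry2 and Per3, of the repressor arm, by 1.90 and 1.76. Of the 19 genes 13 passed as higher and 4 as lower. The lower ones included Per2, a relative of Per3, Ciart (-0.59) and the PAR bZIP factor Hlf, and the lowest log2 fold change was -0.61. With 2 times that lie a whole number of days apart, phase was not measured.

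Matrix and adhesion genes moved in both directions. Of 25 collagen, laminin and fibrillar matrix genes tested 9 rose and 5 fell by at least 2-fold. The basement membrane genes Nid1 and Col4a5 rose by 2.93 and 2.80 and the matrix protein gene Sparc by 2.42, while the fibrillin Fbn2 and the laminin chain Lama4 had log2 fold changes of -2.33 and -2.05. Of 20 adhesion and junction genes 9 rose and 2 fell by at least 2-fold, with the integrin Itga7 and the cell adhesion genes Nrcam and Cadm4 rising by 3.08, 2.75 and 2.62 and Cdh4 and Chl1 at -1.43 and -1.39. Among nuclear noncoding RNAs, Miat rose by 4.60 in vehicle, from 0.235 to 29.0 FPKM in the mean, and by 2.78 with CT-179. Of 12 BCL2 family genes tested 7 passed as higher and 4 as lower (median 0.17). The 3 that rose by at least 2-fold were the pro-death genes Bmf, Bbc3 and Bcl2l11, by 2.88, 1.32 and 1.18. The pro-death genes Bax and Bok were lower (-0.34 and -0.38). The anti-death gene Bcl2l1 was higher (0.79) and its relative Bcl2 lower (-0.52). Of 17 p53 target genes tested 5 rose and 3 fell by at least 2-fold.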
